A study of Mus musculus with 96 samples.

Results

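The comparison described here is chloramphenicol against its vehicle, DMSO, after 48 h in mouse C2C12 myoblasts that expressed LbNOX. Its members were chosen by their labels: 2 samples with chloramphenicol and 2 with DMSO, which are 4 of the 96 RNA-seq samples in the series. C2C12 is a mouse skeletal muscle line that proliferates as myoblasts. LbNOX is a bacterial enzyme that turns NADH and oxygen into NAD+ and water, here in the cytosol. The LbNOX cells were stably transduced by lentivirus with a doxycycline-inducible gene, and cells transduced with luciferase in the same kind of vector served as the control line. All 8 samples of both lines received doxycycline at 300 ng/ml, the DMSO samples included, and the treated samples received chloramphenicol at 20 µg/ml in medium without pyruvate. Fewer cells per well were seeded for chloramphenicol than for most of the study's treatments. A figure legend of the study states that uridine was present with chloramphenicol, and whether the DMSO samples received uridine too is not given in the sources used here, so chloramphenicol and uridine cannot be told apart if they did not. Nothing in the labels says that samples of a group came from separate cultures, so p-values measure only the spread between these samples, which may be technical.

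Chloramphenicol blocks the mitochondrial ribosome, which makes the few proteins encoded by mitochondrial DNA, all of them subunits of the respiratory chain or of ATP synthase. Cells deprived of a working respiratory chain cannot regenerate NAD+ from NADH as before, and many respond with the integrated stress response. In that response phosphorylated eIF2α slows translation in general and favours translation of the transcription factor ATF4, whose targets make serine, one-carbon units, asparagine, proline and cysteine precursors, import amino acids and charge tRNAs. Doxycycline belongs to the tetracyclines, which can themselves inhibit mitochondrial ribosomes, and it was present in every sample compared here. The comparison asks how the myoblasts responded to loss of mitochondrial translation while a second route for NADH oxidation was available in the cytosol.

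Each of the 4 samples held between 9397380 and 10354568 estimated counts. The LbNOX transgene had 8963 and 7326 counts in the DMSO samples and 8012 and 8473 in the chloramphenicol samples, and 0 in all 4 luciferase samples. All 8 myoblast marker genes checked (such as the muscle intermediate filament gene Des and the transcription factor gene Myod1) reached at least 16 counts in every LbNOX sample. The summed level of 19 myotube and sarcomere markers was 79.3 and 88.3 CPM (counts scaled to a common library size with TMM factors, as everywhere below) with DMSO and 86.7 and 82.2 with chloramphenicol. The summed level of 12 adipocyte, neural, immune and epithelial markers was 50.9 and 45.9 CPM with DMSO and 49.8 and 47.7 with chloramphenicol. That of the 8 myoblast markers was 6716 and 6892 CPM with DMSO and 6374 and 6163 CPM with chloramphenicol, lower in both treated samples.

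Chloramphenicol changed a small set of genes in LbNOX myoblasts. Of 11704 genes tested, 79 rose (0.675%) and 30 fell (0.256%), 109 in all (0.931%), at an adjusted p below 0.05 in edgeR's quasi-likelihood test. The number with an unadjusted p below 0.05 was 1498 (12.8%). Most of the changes were modest: 19 of the 79 rose and 3 of the 30 fell by at least 2-fold. With 1 of the 4 LbNOX samples left out, the number of calls was 32 or 35 without the first or second chloramphenicol sample and 141 or 43 without the first or second DMSO sample. Of the 66 called genes that the naming rule chose, 26, 26, 47 and 32 kept their call in those 4 fits. The same test in the luciferase control myoblasts called 989 genes (8.45%), 565 higher (4.83%) and 424 lower (3.62%). The LbNOX calls lay mostly within the control calls: 96 of the 109 were called in the same direction in the control line (88.1% of the LbNOX calls and 9.71% of the control calls), 72 of them higher and 24 lower, and 1 was called in the opposite direction. For 89 of the 109 the change was larger in size in the control line, and the median absolute log2 fold change over the 109 was 0.535 in LbNOX myoblasts and 0.913 in control myoblasts. The genes were selected on the LbNOX values, and the 2 comparisons share no sample. Over all genes tested the log2 fold changes of the 2 lines had a Pearson r of 0.355 and a Spearman rho of 0.373 across genes, which are not independent replicates.

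**Figure D1:**
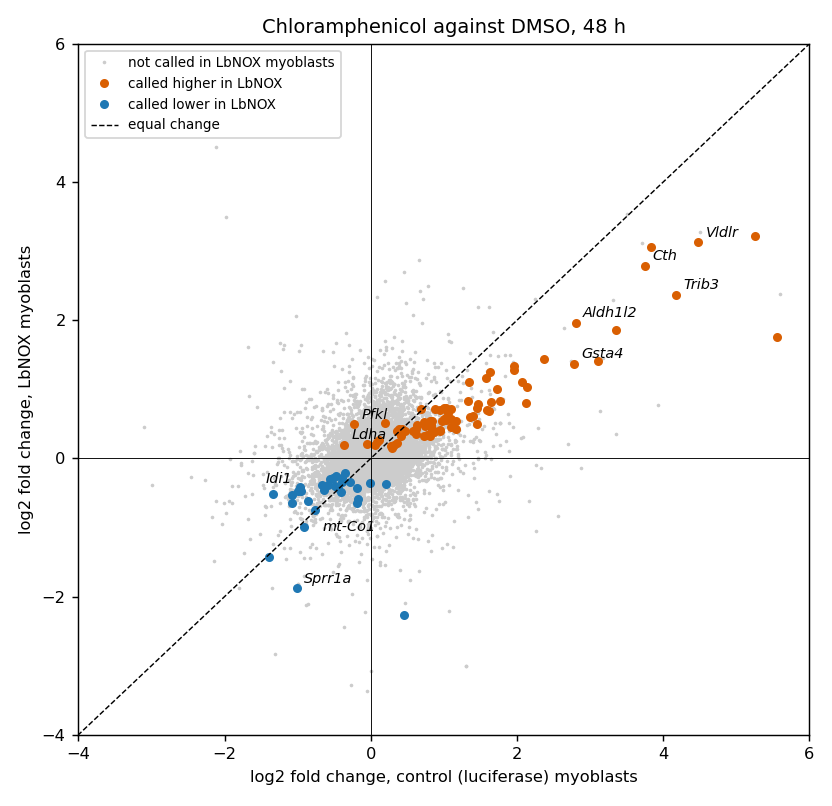
Log2 fold change with chloramphenicol against DMSO after 48 h for each gene tested, in control (luciferase) myoblasts on the x axis and LbNOX myoblasts on the y axis; coloured points are genes called in LbNOX myoblasts (Car6, with no DMSO count in LbNOX myoblasts, and genes beyond the axes are left out) and the dashed line marks equal change. Most coloured points lie nearer to 0 on the LbNOX axis, 89 of the 109 called genes changing more in the control line.

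The difference between the 2 responses was tested directly as an interaction in the same fit. It was called for 62 genes (0.53%): the response was lower in LbNOX myoblasts than in control myoblasts for 53 (0.453%) and higher for 9 (0.0769%). With no filter on low counts that balance turned, to 198 lower and 285 higher of 483 calls, and DESeq2's Wald test gave 116 lower and 51 higher. The number with an unadjusted p below 0.05 was 1181 (10.1%). Without the first chloramphenicol sample of LbNOX myoblasts no difference was called in edgeR's test (925 genes had an unadjusted p below 0.05), and without the second 2 were. Of the 53, 52 were genes that rose in control myoblasts, and of the 9, 8 were genes that fell there. Of the 62 genes, 33 also changed in LbNOX myoblasts and 29 did not pass the test there. Of the 892 genes called in control myoblasts alone, which include those 29, 788 had the same sign of change in LbNOX myoblasts, 609 of them with LbNOX groups that did not overlap in CPM. Over all genes tested, the LbNOX groups did not overlap for 23% in the higher direction and for 22.9% in the lower.

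Fewer transcription factor and feedback genes of the integrated stress response passed the test than in control myoblasts. Of the 15 tested from a list of 17, 4 rose in LbNOX myoblasts and none fell, with a median log2 fold change of 0.647 against 0.000 over all genes, and 14 rose in control myoblasts with a median of 1.88. The LbNOX groups of 13 of the 15 did not overlap and lay higher with chloramphenicol, against 23% of all genes tested. With all transduced myoblasts in the fit 10 of 16 were called, with no count filter 8 of 17, and the median was 0.424 without the first DMSO sample. The response was called lower in LbNOX than in control myoblasts for 8 of the 15. Trib3, a pseudokinase induced by ATF4 that feeds back on it, was at 9.01 and 7.51 CPM with DMSO and at 43.0 and 42.9 CPM with chloramphenicol. Both treated samples lay far above both vehicle samples, a log2 fold change of 2.37 ± 0.14 (SE; edgeR adjusted p = 9.41e-05), while the control line rose by 4.18. Chac1, which degrades glutathione, rose from 22.0 and 22.2 CPM to 38.0 and 39.5 CPM, and Eif4ebp1, a brake on cap-dependent translation, rose from 130 and 125 CPM to 224 and 217 CPM. Vldlr, a lipoprotein receptor, rose from 0.581 and 1.38 CPM to 8.85 and 8.23 CPM (log2 fold change 3.13 ± 0.34), the steepest rise among the genes of this list. Without the second DMSO sample its log2 fold change was 3.85.

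The factors themselves did not pass the test in LbNOX myoblasts. Atf4 was at 273 and 259 CPM with DMSO and at 298 and 312 CPM with chloramphenicol, a log2 fold change of 0.20 (edgeR adjusted p = 0.17). The groups did not overlap, but the same gene rose by 1.11 on the log2 scale in control myoblasts, and the 2 responses differed by -0.91 ± 0.07 (LbNOX minus control, edgeR adjusted p = 0.00408). Ddit3, which encodes the stress factor CHOP, was at 18.1 and 19.4 CPM with DMSO and 25.1 and 26.5 CPM with chloramphenicol, against a rise of 1.95 in the control line and a difference of -1.49. Ppp1r15a, the regulatory subunit that directs a phosphatase to eIF2α, had overlapping groups at 20.1 and 21.5 CPM with DMSO and 22.8 and 20.0 CPM with chloramphenicol, and its response differed from that of control myoblasts by -1.15. Atf3, a stress-induced repressor, stayed between 1.09 and 1.95 CPM in all 4 LbNOX samples. Its rise of 2.88 in the control line was called, but the difference of -3.01 was not (edgeR adjusted p = 0.197). Gdf15, a secreted stress cytokine, was at 8.04 and 9.10 CPM with DMSO and 11.9 and 12.6 CPM with chloramphenicol, and the difference of -1.38 from the control response was called (edgeR adjusted p = 0.0442).

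**Figure D2:**
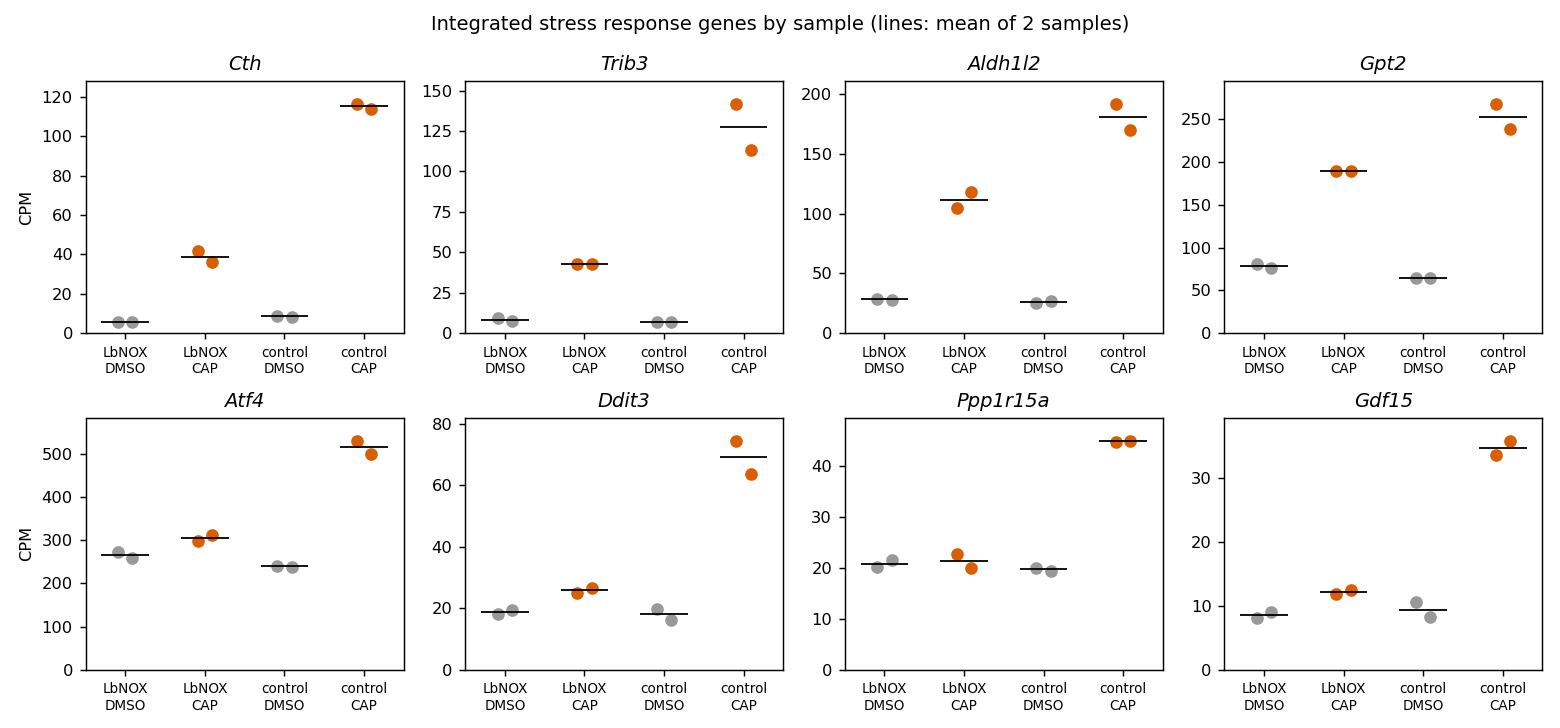
Level of 8 integrated stress response genes in each of the 8 samples, in CPM (y axis, from 0), by line and treatment (CAP, chloramphenicol); points are samples and lines the mean of 2. Cth, Trib3, Aldh1l2 and Gpt2 rose in both lines and more so in control myoblasts, whereas Ppp1r15a overlapped between the LbNOX groups and was about 45 CPM in treated control myoblasts.

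Metabolic targets of the response rose. Of 16 genes of serine, one-carbon and amino acid synthesis, all tested, 12 rose in LbNOX myoblasts and none fell, against 15 that rose in control myoblasts. The list's median log2 fold change was 0.761 in LbNOX and 1.34 in control myoblasts. All 16 had a lower log2 fold change in LbNOX than in control myoblasts, compared with 5797 of the 11704 genes tested, and the difference was called for 9. Cth, which makes cysteine from cystathionine, rose from 5.71 and 5.50 CPM with DMSO to 41.8 and 36.0 CPM with chloramphenicol. This was a log2 fold change of 2.79 ± 0.12 (edgeR adjusted p = 3.36e-05), with a difference of -0.96 from the control response. Aldh1l2, a mitochondrial folate enzyme, rose from 28.8 and 28.0 CPM to 104 and 118 CPM (1.97 ± 0.10, edgeR adjusted p = 5.55e-05).

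The serine branch rose along its whole length. Phgdh, which commits a glycolytic intermediate to serine, went from 596 and 623 CPM to 892 and 867 CPM, Psat1, the next enzyme, from 353 and 342 CPM to 562 and 562 CPM, and Psph, the last, from 69.1 and 69.8 CPM to 121 and 125 CPM. The log2 fold changes were 0.53, 0.69 and 0.83. Against control myoblasts the first 2 enzymes did not differ past the threshold (-0.20 ± 0.05, edgeR adjusted p = 0.226, and -0.25 ± 0.07, edgeR adjusted p = 0.243), and Psph did (-0.94, edgeR adjusted p = 0.0111). Shmt2 and Mthfd2, which carry the one-carbon unit of serine through mitochondrial folate, rose by 0.83 and 0.60.

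Asparagine, proline and alanine synthesis each had a called member. Asns, which makes asparagine from aspartate, was at 138 and 150 CPM with DMSO and 289 and 286 CPM with chloramphenicol, a log2 fold change of 1.00 ± 0.05. In control myoblasts it rose by 1.73, and the difference was -0.73 (edgeR adjusted p = 0.0103). Pycr1 and Aldh18a1, enzymes of proline synthesis, rose by 1.25 and 0.55. Gpt2, the mitochondrial alanine transaminase, rose by 1.28 with values of 80.3 and 75.5 CPM against 190 and 190 CPM. Pck2, the mitochondrial enzyme that makes phosphoenolpyruvate, rose by 1.35 with values of 77.2 and 87.4 CPM against 205 and 213 CPM. The other members were Got1, Bcat1 and Mthfd1l, with log2 fold changes between 0.32 and 0.37 that did not pass the test, and Cbs, whose groups overlapped.

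ATF4 binds DNA as a dimer at the C/EBP-ATF response element, written TGATGNAA. RefSeq promoter sequences (GRCm38.p6) were matched by symbol for 54 of the 79 genes that rose and 17 of the 30 that fell, and the 250 bases before the start were searched on both strands. The element was found for 11 of the 54 (20.4%) and 2 of the 17 (11.8%), against 196 of 8670 tested genes with a promoter (2.26%) and 1056 of all 27025 genes in the promoter table (3.91%). A match is only a description of these letters, not a binding site. The 11 were Asns, Chac1, Gars, Pck2, Pycr1, Slc7a11, Tars, Vldlr, Fbln5, Hax1 and Serpinf1, and the 2 were Chrna1 and Idi1. The promoters of 4 of the amino acid and feedback genes that rose are shown because they carry the element; they are printed 5′ to 3′ on the gene's strand, end at the last base before the start, and have the matches in capitals. Slc7a11 lies at chr3:50443614-50443863 (minus strand), Chac1 at chr2:119350992-119351241 (plus), Pck2 at chr14:55540016-55540265 (plus) and Pycr1 at chr11:120643749-120643998 (minus).
Slc7a11: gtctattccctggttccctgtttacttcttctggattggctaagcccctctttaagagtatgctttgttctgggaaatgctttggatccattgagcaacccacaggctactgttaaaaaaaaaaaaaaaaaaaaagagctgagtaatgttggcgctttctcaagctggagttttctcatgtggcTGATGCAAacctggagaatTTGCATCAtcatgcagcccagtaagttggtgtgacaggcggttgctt
Chac1: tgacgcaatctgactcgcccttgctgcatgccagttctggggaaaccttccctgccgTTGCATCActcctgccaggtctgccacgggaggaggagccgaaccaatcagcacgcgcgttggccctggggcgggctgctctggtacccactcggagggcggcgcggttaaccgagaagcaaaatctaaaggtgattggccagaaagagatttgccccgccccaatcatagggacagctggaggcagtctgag
Pck2: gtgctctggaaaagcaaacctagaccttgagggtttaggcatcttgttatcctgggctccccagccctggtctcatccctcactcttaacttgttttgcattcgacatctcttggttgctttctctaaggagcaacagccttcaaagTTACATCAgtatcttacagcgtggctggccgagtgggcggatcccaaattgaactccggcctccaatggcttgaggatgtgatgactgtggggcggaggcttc
Pycr1: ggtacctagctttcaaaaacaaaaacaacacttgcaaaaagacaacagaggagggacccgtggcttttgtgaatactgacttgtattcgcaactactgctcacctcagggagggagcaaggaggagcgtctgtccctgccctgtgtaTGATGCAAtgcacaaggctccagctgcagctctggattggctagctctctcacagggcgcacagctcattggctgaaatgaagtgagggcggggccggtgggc
Slc7a11 held 2 matches, with first bases 66 and 47 bases before the start, and the others 1 each, at 193 in Chac1 and 103 in Pck2 and Pycr1. Chac1 and Pck2 lay on the reverse strand of the element and Pycr1 on the forward strand.

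Amino acid transporters and tRNA synthetases had members that rose in LbNOX myoblasts and no called member that fell. Of 12 plasma membrane amino acid transporters, 4 rose and none fell in LbNOX myoblasts (median 0.322), against 10 that rose and 2 that fell in control myoblasts (median 0.938). The LbNOX groups did not overlap and lay higher with chloramphenicol for 10 of the 12, against 23% of all genes tested. They lay lower without overlap for 2, against 22.9% of all genes. Without the first or second chloramphenicol sample fewer transporters were called, and the list median was 0.252 or 0.376. Slc7a11, the cystine importer whose promoter held a pair of elements, rose from 4.45 and 3.17 CPM to 13.1 and 14.8 CPM, and Slc6a9, a glycine transporter, from 9.30 and 12.4 CPM to 32.8 and 25.8 CPM. The large neutral amino acid exchanger is built from Slc7a5, which rose by 1.17, and Slc3a2, which rose by 0.50. The Slc3a2 response differed from that of control myoblasts by -0.95 (edgeR adjusted p = 0.00734). Of 20 cytosolic tRNA synthetases, 8 rose and none fell, with a median of 0.307 against 0.623 in control myoblasts, where 14 rose. The 8 were Lars, Sars, Nars, Gars, Eprs, Tars, Wars and Iars, with log2 fold changes from 0.32 to 0.71, and 5 of the list were called without the first chloramphenicol sample. Gars, at 308 and 313 CPM with DMSO, reached 449 and 458 CPM with chloramphenicol. None of 17 mitochondrial tRNA synthetases was called in either line, with medians of 0.227 and 0.203. The LbNOX median was 0.118 without the first DMSO sample and 0.123 without the second chloramphenicol sample.

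**Figure D3:**
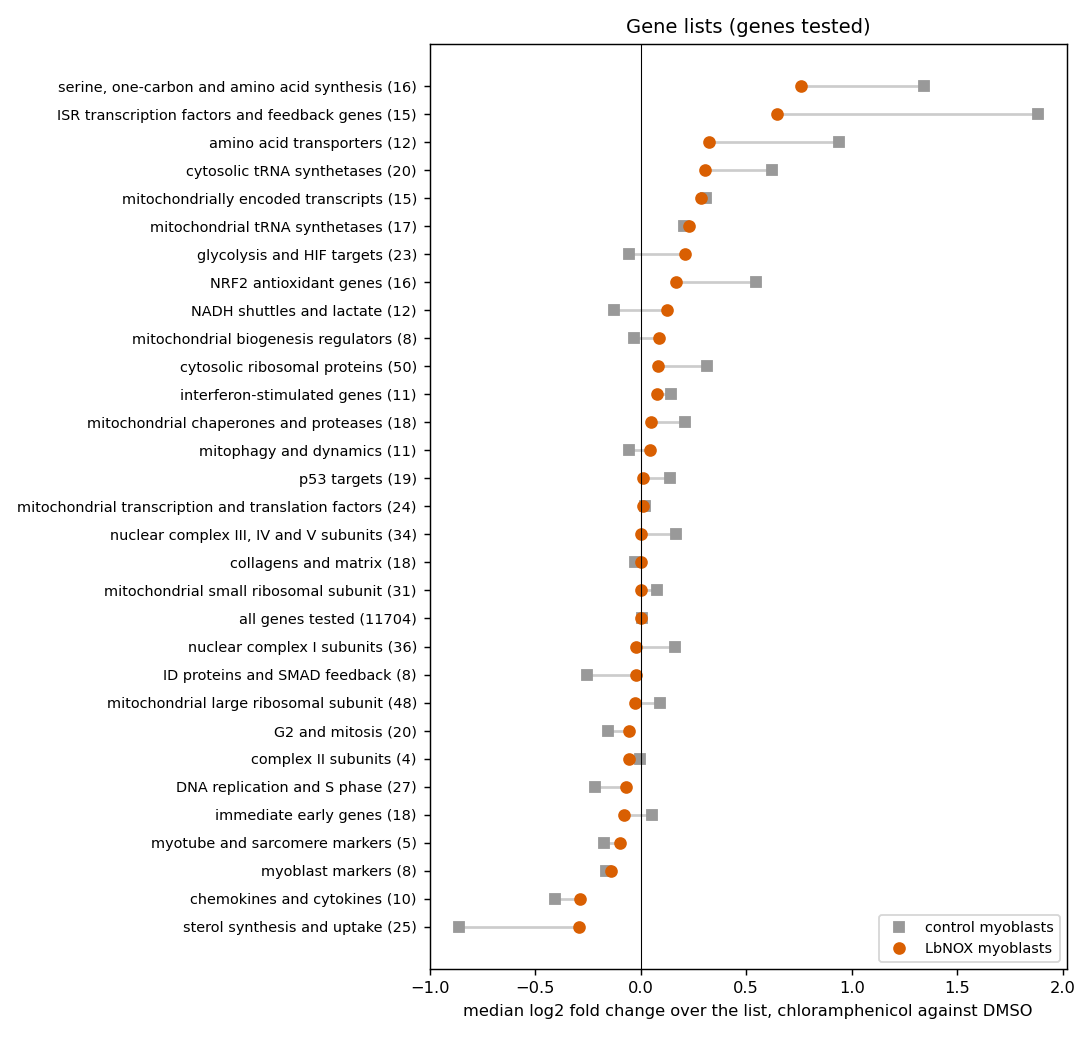
Median log2 fold change with chloramphenicol against DMSO (x axis) over the genes tested of each list (y axis, number of genes in brackets), in LbNOX and control myoblasts. The 4 amino acid and integrated stress response lists had the highest LbNOX medians, between 0.307 and 0.761, all below the control medians, and the sterol list had the lowest control median.

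The transcripts of mitochondrial DNA changed in both directions. Of 15 tested, 4 rose and 2 fell in LbNOX myoblasts, with 6 and 1 called in control myoblasts, and no difference between the lines was called. The 2 that fell encode core subunits of complex IV. mt-Co1 was at 2293 and 1923 CPM with DMSO and 1286 and 1236 CPM with chloramphenicol, a log2 fold change of -0.74 ± 0.07 (edgeR adjusted p = 0.00216), and in control myoblasts it changed by -0.76. mt-Co3 was at 1097 and 1120 CPM with DMSO and at 703 and 776 CPM with chloramphenicol, a fall of 0.58 with an SE of 0.05. In control myoblasts mt-Co3 changed by -0.17, which was not called, and the difference of -0.42 did not pass the threshold (edgeR adjusted p = 0.054). mt-Co2, the remaining complex IV subunit, had overlapping groups at 498 and 447 CPM with DMSO and 488 and 461 CPM with chloramphenicol.

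The 4 that rose encode 3 subunits of complex I and 1 of complex III. mt-Nd1 rose from 1731 and 1516 CPM to 2239 and 2134 CPM, a log2 fold change of 0.43 in both LbNOX and control myoblasts. mt-Nd2 rose from 158 and 147 CPM to 250 and 252 CPM, mt-Nd3 from 105 and 116 CPM to 173 and 193 CPM, and mt-Cytb from 850 and 738 CPM to 1107 and 1038 CPM. The nuclear pseudogene Gm28438, a copy of mitochondrial sequence, was called as well, so reads may have been divided between it and the mitochondrial transcripts. mt-Nd5 and mt-Nd6 did not pass the test, at -0.09 and -0.09 on the log2 scale, and the ribosomal RNA mt-Rnr2 was at 16637 and 15387 CPM with DMSO and 13850 and 13655 CPM with chloramphenicol (edgeR adjusted p = 0.0745). The libraries were primed on poly(A), so these values count polyadenylated molecules. Without the second chloramphenicol sample none of the 4 rises was called, and without the first only 1 was, whereas both falls were called with every sample left out in turn. The share of all counts from these genes was 2.61% and 2.41% with DMSO and 2.30% and 2.33% with chloramphenicol.

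**Figure D4:**
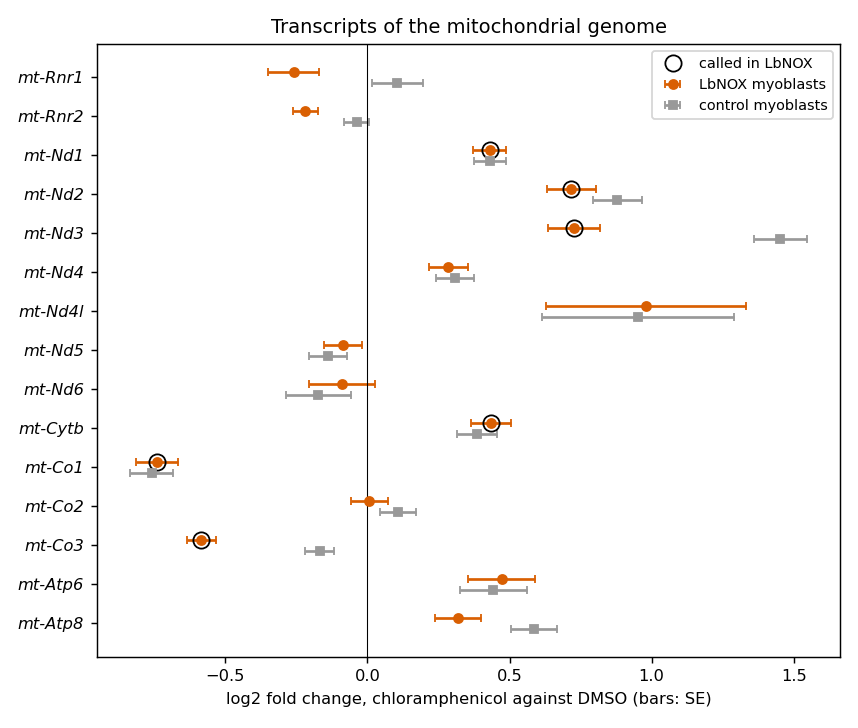
Log2 fold change with chloramphenicol against DMSO (x axis, bars are SE) of 15 transcripts of mitochondrial DNA (y axis) in LbNOX and control myoblasts; circles mark genes called in LbNOX myoblasts. The LbNOX and control points of mt-Co1 (-0.74 and -0.76) and mt-Nd1 (0.43 and 0.43) nearly coincide, while mt-Co3 and mt-Nd3 lie apart without a called difference.

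Lists of nuclear genes for the mitochondrial ribosome and respiratory chain had median log2 fold changes near 0 in LbNOX myoblasts. Of 48 large and 31 small subunit proteins of the mitochondrial ribosome, the target of chloramphenicol, none was called, with medians of -0.026 and 0.000. Their members ran from -0.435 to 0.272 and from -0.336 to 0.299, and 0.931% of all genes tested were called. None of 24 mitochondrial transcription and translation factors and none of 36 nuclear complex I subunits was called either, with medians of 0.013 and -0.020. Complex I members ran from -0.469 to 0.155, and in control myoblasts their median was 0.164 with 3 called higher. For 32 of the 36 the log2 fold change was lower in LbNOX than in control myoblasts, compared with 5797 of the 11704 genes tested. Among 34 nuclear subunits of complexes III, IV and V, 1 rose: Uqcrq, a small complex III subunit, which went from 63.9 and 67.9 CPM to 85.8 and 95.6 CPM. That call was lost with any 1 of the 4 LbNOX samples left out. Members of this list ran from -0.253 to 0.46, and in control myoblasts the median was 0.166 with 6 called higher. For 29 of the 34 the log2 fold change was lower in LbNOX than in control myoblasts. Among 18 mitochondrial chaperones and proteases 1 rose as well, Hspa9, the matrix Hsp70, from 617 and 609 CPM to 830 and 794 CPM, with a response -0.43 from that of control myoblasts (edgeR adjusted p = 0.0141). Of the 18, 2 were called higher without the first DMSO sample, 4 by DESeq2's Wald test or with all transduced myoblasts in the fit, and 5 with no count filter. The chaperonin genes Hspd1 and Hspe1, at log2 fold changes of 0.20 and 0.13, did not pass the test. Of 50 cytosolic ribosomal proteins, 3 rose, among them Rpl4 by 0.18, against 38 in control myoblasts. Small positive log2 fold changes were common to 47 of the 50, with a median of 0.080 against 0.314 in control myoblasts. The LbNOX groups of 25 did not overlap and lay higher, against 23% of all genes. With no count filter 11 were called higher. The 3 calls were lost with any 1 LbNOX sample left out, where the list median lay between 0.019 and 0.123.

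The glycolytic genes had list medians of opposite sign in the 2 lines. Of 23 glycolysis and HIF target genes, 5 rose and none fell in LbNOX myoblasts with a median of 0.209, while 3 rose and 5 fell in control myoblasts with a median of -0.057. In 17 of the 23 the LbNOX groups did not overlap and lay higher with chloramphenicol, against 23% of all genes tested. Ldha, which interconverts pyruvate and lactate with NADH, was at 1295 and 1299 CPM with DMSO and 1479 and 1503 CPM with chloramphenicol, a log2 fold change of 0.20 ± 0.04 (edgeR adjusted p = 0.0416). In control myoblasts it fell by 0.36, making Ldha the only gene called in opposite directions in the 2 lines, and the difference was 0.56 ± 0.05 (edgeR adjusted p = 0.00547). Pfkl, a phosphofructokinase subunit, went from 96.6 and 99.7 CPM to 139 and 137 CPM in LbNOX myoblasts, and its difference from control myoblasts was 0.72 (edgeR adjusted p = 0.0252). Gpi1 and Aldoa, enzymes of the upper pathway, rose by 0.26 and 0.21, and Hk2, a hexokinase, by 0.73. In control myoblasts Gpi1 and Aldoa changed by 0.12 and -0.05, neither called, while Hk2 rose by 1.00, which was called. Tpi1, at 613 and 645 CPM with DMSO and 702 and 708 CPM with chloramphenicol, was not called in LbNOX myoblasts, but its difference of 0.35 from the control response was. P4ha1, a collagen prolyl hydroxylase and HIF target, behaved likewise, at 133 and 144 CPM against 164 and 164 CPM, with a called difference of 0.55. These are small rises, and none of the 5 calls was made when any 1 of the 4 LbNOX samples was left out. The median of all 23 genes lay between 0.180 and 0.210 in those fits. More of the list were called higher by DESeq2's Wald test (7 of 23), with all transduced myoblasts in the fit (7 of 24) and with no count filter (11 of 26). Fewer were called with at least 50 counts (3 of 22) and with only the 4 LbNOX samples (1 of 23).

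A few sterol genes fell. All 25 genes of sterol synthesis and uptake tested had a negative log2 fold change in LbNOX myoblasts. Of these, 4 fell past the threshold, with a list median of -0.291, against 22 that fell and a median of -0.863 in control myoblasts. The LbNOX groups did not overlap and lay lower with chloramphenicol for 20 of the 25, against 22.9% of all genes tested. Acat2, which joins acetyl-CoA units at the entry of the pathway, was at 142 and 141 CPM with DMSO and at 97.6 and 97.8 CPM with chloramphenicol, a log2 fold change of -0.53 ± 0.06 (edgeR adjusted p = 0.00427). Idi1, the isomerase of the isoprenoid units, was at 171 and 182 CPM against 122 and 126 CPM, and Fdps, which condenses them, at 235 and 243 CPM against 173 and 170 CPM. Msmo1, a late demethylating enzyme, was at 141 and 143 CPM against 113 and 100 CPM. The response was higher in LbNOX than in control myoblasts, that is, nearer to 0, for Acat2 (0.54), Idi1 (0.83) and Fdps (0.52), all called. Hmgcs1, which makes HMG-CoA, had the lowest log2 fold change of those not called, -0.49 (edgeR adjusted p = 0.0882). Outside the list, the desaturase gene Scd2 and the transferrin receptor gene Tfrc fell by 0.48 and 0.65. The 4 sterol calls were lost without either 1 of the 2 chloramphenicol samples, and the list median was then -0.352 or -0.296. Of the 25 sterol genes, 6 were called lower by DESeq2's Wald test and with all transduced myoblasts in the fit. With no count filter 8 were called lower, and with only the 4 LbNOX samples 3.

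**Figure D5:**
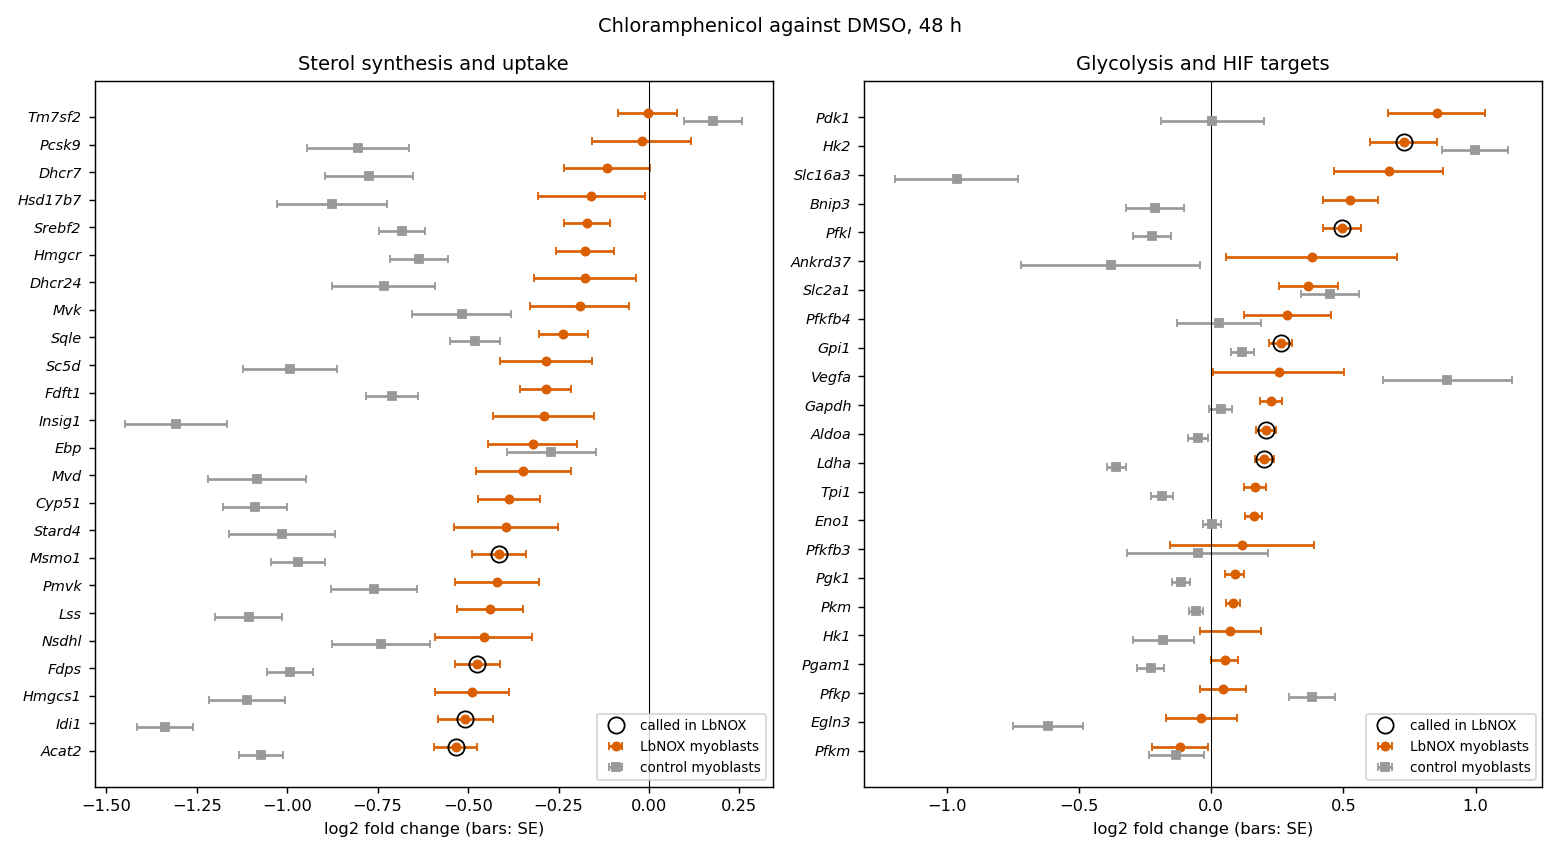
Log2 fold change with chloramphenicol against DMSO (x axes, bars are SE) of the genes tested for sterol synthesis and uptake (left) and for glycolysis and HIF targets (right) in LbNOX and control myoblasts; circles mark genes called in LbNOX myoblasts. All 24 sterol genes plotted lie below 0 in LbNOX myoblasts, most of them less so than in control myoblasts, and Ldha lies on opposite sides of 0 in the 2 lines.

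Fewer antioxidant genes were called than in control myoblasts. Of 16 NRF2 antioxidant genes, 2 rose in LbNOX myoblasts, Gsta4 and Slc7a11, against 10 in control myoblasts, and 4 differences were called, each lower in LbNOX. The Slc7a11 call was lost without the second chloramphenicol sample, and with no count filter 5 of the 16 were called. Gsta4, a glutathione transferase, rose from 49.5 and 43.4 CPM to 117 and 123 CPM, a log2 fold change of 1.37 ± 0.09, with a difference of -1.41 from the control response (edgeR adjusted p = 0.00547). Its relative Gsta1 rose from 2.03 and 4.55 CPM to a mean of 11.1 ± 0.090 CPM (SD, n = 2), with a difference of -3.80. Its log2 fold change was 1.76, and it was 2.44 without the second DMSO sample. With any 1 of the other 3 LbNOX samples left out, the gene was not called. The paralog Gm3776 moved with it, so reads may have been divided between those copies. Sqstm1, an autophagy receptor and NRF2 target, was at 522 and 549 CPM with DMSO and at 596 and 614 CPM with chloramphenicol. It was not called in LbNOX myoblasts, and its response was -1.01 from that of control myoblasts (edgeR adjusted p = 0.00261).

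Cell cycle, p53, inflammatory, interferon and matrix genes gave almost no calls in LbNOX myoblasts. None of 27 DNA replication genes (median -0.068), 20 G2 and mitosis genes (-0.054), 19 p53 targets (0.013), 11 interferon-stimulated genes (0.079), 10 chemokines and cytokines (-0.288), 18 immediate early genes (-0.080) and 18 collagens and matrix genes (0.002) was called. The LbNOX groups did not overlap and lay lower with chloramphenicol for 8 of the 10 chemokines and cytokines and for 14 of the 27 DNA replication genes, against 22.9% of all genes. With all transduced myoblasts in the fit, 2 chemokines and cytokines and 2 collagens and matrix genes were called lower and 1 p53 target higher, and DESeq2's Wald test called 1 chemokine or cytokine gene and 2 collagens and matrix genes lower. With no count filter, 2 chemokines and cytokines were called lower, 3 collagens and matrix genes higher and 3 lower, 2 immediate early genes higher and 1 p53 target higher. Without the first DMSO sample 1 gene of the collagen and matrix list was called higher. In control myoblasts 11 of the DNA replication genes and 4 of the G2 and mitosis genes fell, but no difference between the lines was called in those lists. The log2 fold change was higher in LbNOX than in control myoblasts for 26 of the 27 and 18 of the 20. This held for 5904 of the 11704 genes tested. Ccne1, the G1/S cyclin, Tk1, which supplies thymidine nucleotides, Cdkn1a, which encodes the inhibitor p21, and Trp53inp1, a p53 target, had log2 fold changes of -0.15, -0.13, 0.05 and -0.31, and none was called. Among ID proteins and SMAD feedback genes 1 fell, Id3, an inhibitor of differentiation, from 619 and 634 CPM to 471 and 481 CPM (edgeR adjusted p = 0.00258), a call lost without the first chloramphenicol sample (edgeR adjusted p = 0.0515). Among 8 myoblast markers 1 fell, the integrin gene Itga7, from 112 and 109 CPM to 87.5 and 86.6 CPM. The Itga7 call was lost with any 1 of the 4 LbNOX samples left out. Of the 8 markers, 7 had a negative log2 fold change. The LbNOX groups of 5 did not overlap and lay lower with chloramphenicol, against 22.9% of all genes. By DESeq2's Wald test and with all transduced myoblasts in the fit 2 were called lower, and with no count filter 3.

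Further genes with large changes were in none of these lists. Cdsn, which encodes corneodesmosin, a skin adhesion protein, rose from 2.03 and 1.27 CPM to 14.1 and 13.8 CPM (log2 fold change 3.06 ± 0.24). Acot2, a mitochondrial acyl-CoA thioesterase, rose from 8.52 and 6.67 CPM to 19.7 and 20.7 CPM, with a difference of -1.70 from the control response. Prl2c2, a prolactin family hormone gene with near-identical neighbours that can share its reads, rose from 47.5 and 47.0 CPM to 96.5 and 96.3 CPM, and Krt14, a keratin, rose by 1.11. The Acot2 and Krt14 calls were lost without either 1 of the chloramphenicol samples or the second DMSO sample, and the Prl2c2 call with any 1 of the 4 LbNOX samples left out. The largest falls among named genes with a mean of at least 50 counts were Sprr1a, a cornified envelope protein gene, from 10.9 and 11.1 CPM to 2.78 and 3.19 CPM, Avpr1a, a vasopressin receptor gene, from 13.7 and 13.4 CPM to 5.77 and 4.32 CPM, and Car3, muscle carbonic anhydrase, from 28.7 and 38.7 CPM to 16.5 and 17.5 CPM. None of the 3 was called without either 1 of the chloramphenicol samples or without the second DMSO sample. None of these 3 falls differed from that of control myoblasts past the threshold. Smaller falls were called for Ndrg4, Alcam, Chrna1, Klf10 and Ddx6, between -0.65 and -0.43. These calls too were lost without either 1 of the chloramphenicol samples or without the second DMSO sample. Those of Alcam, Klf10 and Ddx6 were also lost without the first DMSO sample. Serpinb9b, a protease inhibitor gene, was not called in LbNOX myoblasts at 6.88 and 7.41 CPM against 10.5 and 12.3 CPM, and differed by -2.46 from the control response. Car6, a secreted carbonic anhydrase chosen after its values were seen, had 0 counts in both DMSO samples and 19 in each chloramphenicol sample, at least 6.32-fold higher against a floor of 3 counts per library, and 90 and 81 counts in treated control myoblasts.

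Only 12 genes were called in LbNOX and not in control myoblasts, 6 higher and 6 lower, and a call in 1 line alone does not show a difference. The difference itself was called for 2 of the 12, Pfkl (above) and Sat1, which acetylates polyamines and was chosen after its values were seen. Sat1 was at 145 and 132 CPM with DMSO and at 104 and 110 CPM with chloramphenicol, a log2 fold change of -0.37, against 0.21 in control myoblasts.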

How the data were processed

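RNA was sequenced from poly(A)-primed, unstranded libraries. The authors made the deposited estimated counts per gene with kallisto 0.44 against mouse Ensembl transcripts plus the transgenes, summed over 2 flow cells. Those estimated counts, deposited as whole numbers, were tested with edgeR 4.0.16 (R 4.3.3): TMM scaling, quasi-likelihood F test and Benjamini-Hochberg adjustment at 0.05. One fit held the 8 chloramphenicol and DMSO samples of both lines, as 4 groups of 2, with genes kept at 16 counts or more in every sample of at least 1 group. An exact permutation test of 2 against 2 cannot go below p = 0.333. Replicates differed by more than sampling noise. Genes were named if called in a list, if among the 15 largest called changes per direction in LbNOX myoblasts with a mean of at least 50 counts or the 10 largest called differences per direction, if featured by the study, or as the up to 3 most abundant uncalled members of a list. The members and lists were chosen with earlier results of these data known. Genes with near-identical copies are uncertain, since reads may be divided between copies. Alternatives were other scalings, filters, tests, fits, blocks and omitted samples. The scripts were tested on simulated data. Values of some single genes are not reported here.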

Additional observations from a re-analysis of the deposited data

Results flagged for a closer look

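In groups of 2 samples no test for an outlying sample is possible. The response to chloramphenicol differed between LbNOX and control myoblasts for 62 genes in the interaction test (edgeR, adjusted p below 0.05), and those named in the text are given here as the log2 fold change in LbNOX minus that in control myoblasts. Among integrated stress response factors and feedback genes the difference was -0.91 for Atf4, -1.49 for Ddit3, -1.15 for Ppp1r15a, -1.38 for Gdf15, -1.81 for Trib3, -1.32 for Chac1, -0.68 for Eif4ebp1 and -0.97 for Herpud1, and it was -1.40 for Gtpbp2, which is outside the lists. Among synthesis enzymes it was -0.96 for Cth, -0.84 for Aldh1l2, -0.94 for Psph, -0.76 for Mthfd2, -0.73 for Asns, -0.68 for Gpt2, -0.62 for Aldh18a1, -0.61 for Pck2 and -0.50 for Shmt2. Among transporters and synthetases it was -0.95 for Slc3a2, -0.53 for Slc1a4, -0.55 for Wars, -0.53 for Sars, -0.44 for Nars and -0.42 for Gars. Among antioxidant and mitochondrial genes and those outside the lists it was -1.41 for Gsta4, -3.80 for Gsta1, -1.01 for Sqstm1, -0.50 for Pgd, -0.43 for Hspa9, -1.70 for Acot2 and -2.46 for Serpinb9b. The difference was positive for Idi1 (0.83), Acat2 (0.54), Fdps (0.52), Pfkl (0.72), Ldha (0.56), P4ha1 (0.55), Tpi1 (0.35) and Sdc4 (0.38).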

How the results depend on the processing

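Of the 66 called genes that the naming rule chose, 23 kept the call under all 13 alternatives and none reversed, among them Cth, Trib3, Aldh1l2, Asns, Pck2, Shmt2, Phgdh, mt-Co1 and mt-Co3. Against 109 calls, 750 were made with no count filter (39 of them on genes outside the usual filter), 178 by DESeq2's Wald test, 246 with all 45 transduced myoblast samples in 1 fit and 69 with only the 4 LbNOX samples. Against 62 called differences these settings gave 483, 167 and 139, and the control calls went from 989 to 1521 in the fit of 45. With no count filter the higher share of LbNOX calls was 80.67% against 72.48%, and in the fit of 45 it was 59.35%. The higher share of called differences was 14.52%, and it was 59.01% with no count filter, 30.54% by the Wald test and 28.06% in the fit of 45. DESeq2 size factors gave 105 and 56 calls, the stricter minimum of 50 counts 109 and 66, and a term for outer wells of the plate 102 and 83. Among the samples in the fit only the second DMSO sample of each line lay in an outer well. With that term 86 of the 109 calls and 61 of the 62 differences were kept. Leaving out 1 sample gave 32 to 141 calls in LbNOX myoblasts, 0 to 36 called differences and 381 to 606 calls in control myoblasts. The fewest LbNOX calls came without the first chloramphenicol sample (32), then without the second (35) and without the second DMSO sample (43). Called differences fell to 0 without the first chloramphenicol sample (925 at an unadjusted p below 0.05), to 2 without the second, to 9 without the second DMSO sample and to 7 without the first chloramphenicol sample of control myoblasts. A lone sample was then assumed to vary like the other groups. The cause of these shifts was not tested beyond the smaller number of samples or genes that each setting sets. Replicate numbers did not pair treated with DMSO samples within a line. Same-number deviations of the 2 LbNOX groups correlated at -0.16 and those of the 2 control groups at -0.45. Across the lines the 2 DMSO groups correlated at 0.52 and the 2 chloramphenicol groups at 0.21. The replicate block is therefore given only here, with 78 calls in LbNOX myoblasts, 22 differences and 757 in control myoblasts. Crossing the replicate block (chosen after seeing the data) gave 417, 109 and 1248 calls.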

Other observations

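Further genes called in LbNOX myoblasts lay outside the lists and were chosen after their values were seen. They were picked by hand and stand for no group of genes. Fbln5, a fibulin of elastic fibres, was at 29.9 and 30.7 CPM with DMSO and 50.8 and 56.3 CPM with chloramphenicol, Serpinf1 at 214 and 228 against 356 and 375 CPM, Nid1, a basement membrane linker, at 323 and 317 against 434 and 405 CPM, and Fbln2 at 412 and 433 against 575 and 537 CPM. All 4 also rose in control myoblasts, and of the 18 collagens and matrix genes tested as a list none was called, with a median of 0.002. The log2 fold changes of 4 other called genes were 0.58 for Eif3c, 0.35 for Eif2s2, which encodes the β subunit of eIF2, 0.65 for Xpot, which exports tRNA from the nucleus, and 0.15 for Eef2. The ER protein genes Calr and P4hb fell, by 0.26 and 0.20 on the log2 scale. Avil, which shares with Car6 a rise from near 0 counts in control myoblasts, was at 0 and 0.317 CPM with DMSO and 0.795 and 1.65 CPM with chloramphenicol in LbNOX myoblasts and was not called (edgeR adjusted p = 0.248).

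Other mitochondrial inhibitors were given to LbNOX myoblasts for 10 h instead of 48 h, so their values stand beside these with no comparison. The fold over the DMSO samples of the same time for Cth was 4.88 ± 0.32 (SD, n = 3) with piericidin, 9.53 ± 0.32 (n = 3) with antimycin, 21.5 ± 1.2 (n = 3) with oligomycin and 6.87 ± 0.70 (n = 2) with chloramphenicol. For Ddit3 these folds were 2.10, 2.23, 9.05 and 1.36, and for Atf4 they were 1.46, 0.694, 2.76 and 1.14. For mt-Co1 they were 1.20, 1.08, 1.20 and 0.593, and for mt-Co3 they were 1.04, 0.587, 0.845 and 0.661.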
